A study of Mus musculus with 2 samples.

Results

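Hepatocyte5 is a small cluster of mouse liver cells in a single-cell RNA-seq study of hepatocytes, and its members are the genes deposited under that cluster name. The table that compares the 5 hepatocyte clusters with one another holds 874 Hepatocyte5 rows of 2103 rows, and 871 of them carry a usable gene name. These 871 genes were 54.3% of the 1604 named genes in that table, so more than 1 listed gene in 2 was listed for Hepatocyte5. A further table, which compares each cluster with all other liver cells, holds 434 Hepatocyte5 genes, or 24.7% of its genes.

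The cells came from fasted wild type BALB/c mice that received PBS or recombinant IL-33 (rIL-33, 0.5 µg) by daily intraperitoneal injection for 5 days. Hepatocytes were freed by perfusing the liver with a mild collagenase mixture, and 14000 to 16000 of them were loaded for each library of 10x Genomics 3′ RNA-seq. There was 1 library for PBS and 1 for rIL-33, and the methods give an age of 8 to 10 weeks for mice used to isolate hepatocytes. Whether a library held 1 mouse or several is not given in the sources used here. The deposited tables pool both libraries, so PBS and rIL-33 cells of Hepatocyte5 cannot be told apart here and no comparison of the treatments was made.

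Hepatocytes make most of the proteins of blood plasma, export bile acids into canaliculi, modify drugs and toxins, and release glucose in fasting. Plasma proteins, membrane transporters and most drug-modifying enzymes are made on ribosomes bound to the endoplasmic reticulum (ER), where they are folded and given sugars before they move to the Golgi apparatus. Enzymes of the urea cycle, the respiratory chain and most amino acid breakdown are instead made on free ribosomes and act in mitochondria or the cytosol.

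Each value below is a share, the percentage of cells in which a gene had a value above 0, as deposited for Hepatocyte5 and for the cells it was compared with. The clusters were made from the same cells and genes, so a higher share in a cluster is a description of it and was not tested. A gene was listed only if its log2 fold change was at least 0.25, its p-value at most 0.01 and at least 1 of its shares 25% or more, as checked on every row. A gene that is not listed may still be expressed. Listings refer to the hepatocyte table unless the table of all cells is named. That table holds a gene only if a hepatocyte cluster listed it, and 436 of its 1604 named genes were listed for Hepatocyte5 alone. Counts of listed genes are therefore partly set by the listing itself. They are to be read beside the shares over all genes of the table, 54.3% for Hepatocyte5 and 54.7% for Hepatocyte4. The deposited tables give no number of reads or cells behind a share, so no interval is given, and a share also depends on how many transcripts were captured from each cell.

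Hepatocyte5 was rare. The balance of the shares of 486 genes listed for at least 2 clusters placed 1.47% of the hepatocytes in Hepatocyte5 and 18.1% in Hepatocyte4, the cluster nearest to it in listed genes. In the table of all cells the same calculation gave 1.34% of all liver cells.

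All 3 marker genes given for the cluster had higher shares in it. G6pc (glucose-6-phosphatase, the enzyme that frees glucose for release into blood) had a share of 96.0% in the cluster, 75.5% in Hepatocyte4 and 23.7% in the remaining hepatocytes as a whole. The gene lies on the plus strand of chromosome 11 from 101367561 to 101377903 (GRCm38). The Pcx gene occupies chromosome 19 from 4510472 to 4621752 and makes the carboxylase that feeds pyruvate into glucose synthesis. Its shares were 88.1% and 26.9%. Susd6, on chromosome 12 from 80790510 to 80880835, encodes a membrane protein of the p53 response. Its shares were 49.0% and 7.8%, and it was the only one of the 3 that was not listed for Hepatocyte4.

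Albumin (Alb), the defining transcript of hepatocytes, was recorded in 100% of Hepatocyte5 cells and 100% of the others. Of the markers of other liver cell types, covering Kupffer, endothelial, stellate, T, B and red blood cells, neutrophils, innate lymphoid cells and cycling cells, 0 were listed for Hepatocyte5 in either table. The 1 exception came from the cholangiocyte list of 10 genes: Tm4sf4, at 77.5% against 19.6%, which was also listed for Hepatocyte4 at 50.7%. The other 9 cholangiocyte markers were not listed for any hepatocyte cluster. Nor were the markers of Kupffer, endothelial, stellate, T, B, red blood and cycling cells or neutrophils. These counts therefore do not set Hepatocyte5 apart from the other hepatocyte clusters.

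The Hepatocyte5 genes had a median share of 54.3% in the cluster and 9.3% in the other hepatocytes. The median difference was 42.9 percentage points, with quartiles of 30.95 and 57.0, beside 33.9 over all rows of the table and 33.1 over the Hepatocyte4 rows. Of the listed genes, 462 had a share under 10% in the other hepatocytes as a whole. That share pools Hepatocyte4 with the remaining clusters, and the 430 genes listed for both had a median share of 48.7% in Hepatocyte4. In the table of all cells, the 434 Hepatocyte5 genes had a median share of 41.05% in all other cells, and the lowest was 12.8%. At the upper end, 146 genes were recorded in at least 90% of Hepatocyte5 cells and 46 in all of them. No listed gene had a lower share in Hepatocyte5, whereas 159 of the 169 Hepatocyte1 genes had a lower share in their own cluster. Only 9 genes differed by under 10 percentage points, among them Alb, Apoe, Apoa1, Hp, Trf, Fgb and Ahsg, which encode abundant plasma proteins found in nearly all hepatocytes. At the lower end, the smallest share of a listed gene was 25.2%, next to the limit for listing.

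**Figure D1:**
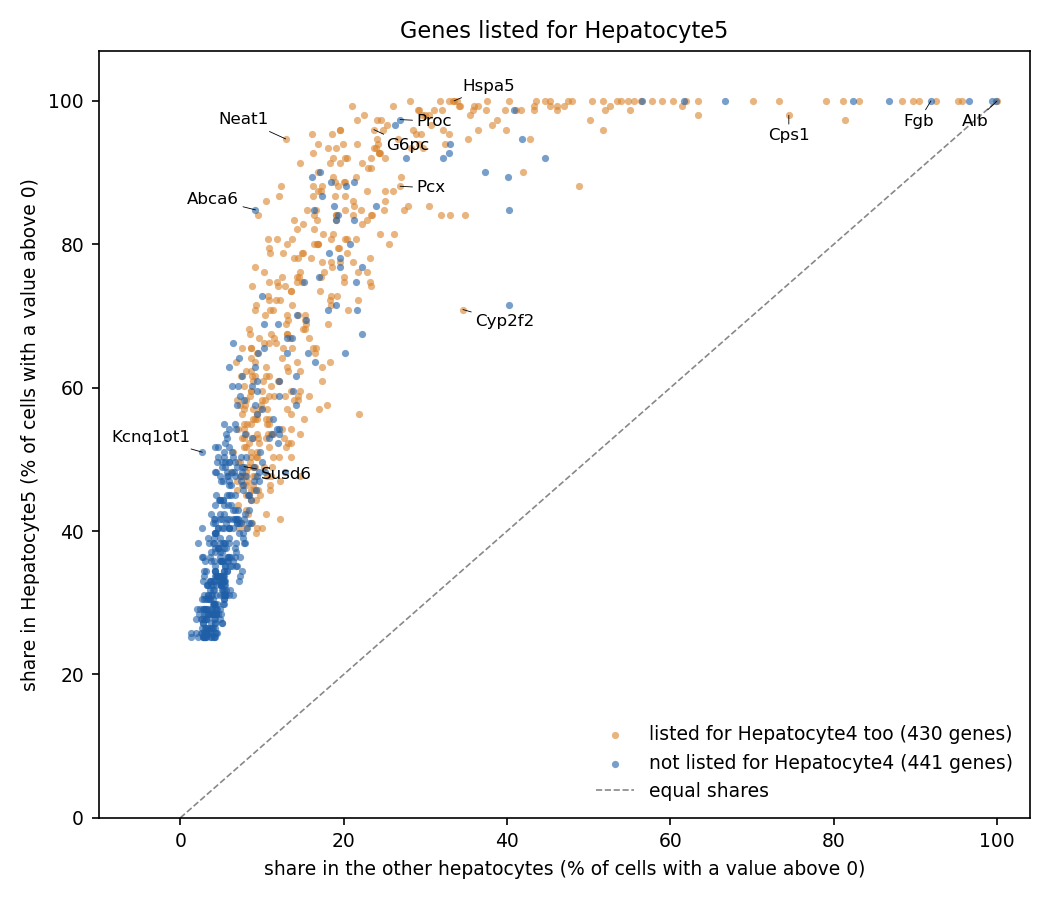
Percent of cells in which a gene was recorded, in Hepatocyte5 (vertical axis) against the other hepatocytes (horizontal axis), for the 871 named genes, 1 point each. Orange points are the 430 genes also listed for Hepatocyte4 and blue points the 441 that were not. All points lie on or above the dashed line of equal shares, and the blue points crowd at low shares.

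Wide gaps belonged to a nuclear RNA, a calcium pump, transporters and plasma proteins. Neat1, the long non-coding RNA that scaffolds nuclear paraspeckles, was recorded in 94.7% inside the cluster and 12.9% outside it, the largest difference of all. It is a single-exon gene on the minus strand of chromosome 19, from 5824708 to 5845478. Atp2a2, the calcium pump of the ER, was recorded in 95.4% and 18.6%. This pump fills the ER with the calcium that its chaperones need.

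Other leading genes serve the plasma and bile. Itih1, a heavy chain of inter-alpha-trypsin inhibitor, had shares of 99.3% and 21.0%. F5 encodes coagulation factor V and stood at 96.0% and 19.5%, and Cpn2, a subunit of plasma carboxypeptidase N, stood at 92.7% and 16.3%. Slc27a5, which activates bile acids before they are conjugated, had the same pair of shares as F5. On the canalicular side, Abcc2 exports conjugates and was recorded in 91.4% against 14.6%, and Abcb11, the bile salt export pump, in 88.1% against 12.3%. Slc38a3, a glutamine transporter, had shares of 94.0% and 16.8%, and Psap, the precursor of lysosomal saposins, 97.4% and 21.6%.

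Hepatocyte5 shared about 1 gene in 2 with Hepatocyte4. That cluster listed 877 named genes, or 54.7% of the table, and 430 of them were also listed for Hepatocyte5. These were 49.4% of the Hepatocyte5 genes and 49.0% of the Hepatocyte4 genes. The remaining 441 Hepatocyte5 genes, 27.5% of the table, were not listed for Hepatocyte4, and 436 were not listed for any other hepatocyte cluster. Hepatocyte1 listed 5 of the Hepatocyte5 genes, and Hepatocyte2 and Hepatocyte3 listed 0.

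For the 430 genes listed for both, the share in Hepatocyte1 to Hepatocyte3 together could be computed from the balance, to within 0.074 percentage points of rounding. The order was Hepatocyte5, then Hepatocyte4, then the other 3 clusters for 425 of the 430 genes. Genes listed for both clusters had been selected as higher in each. The last place of the other 3 clusters was therefore largely set by the listing. The median gap between Hepatocyte5 and Hepatocyte4 was 21.85 percentage points, and the median share in Hepatocyte1 to Hepatocyte3 was 8.25%.

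Afm, which encodes the vitamin E-binding plasma protein afamin, showed the widest gap between both clusters, at 86.1% in Hepatocyte5, 35.3% in Hepatocyte4 and 4.9% in the others. Npc1, which moves cholesterol out of lysosomes, stood at 84.1%, 34.5% and 3.9%. Coagulation factor XII (F12) had shares of 86.8%, 37.6% and 6.3%. Neat1 showed the same order at 94.7%, 47.0% and 5.2%, as did the ER glucosidase gene Ganab at 74.2%, 30.6% and 3.9%.

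Close behind were Abcb11, Abcc2, Cyp2d22, the ER lectin gene Os9 and Scarb1, the receptor for high-density lipoprotein, with Hepatocyte4 shares between 33.6% and 48.6%. At the other end, Hepatocyte4 had the higher share for 3 genes only, and 2 genes were equal. Cyp2f2, a P450 enzyme of periportal hepatocytes, was recorded in 70.9% of Hepatocyte5 and 76.2% of Hepatocyte4 cells. For Cps1, the first enzyme of the urea cycle, the shares were 98.0% and 99.0%, and for Cyp3a11 97.4% and 97.5%.

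**Figure D2:**
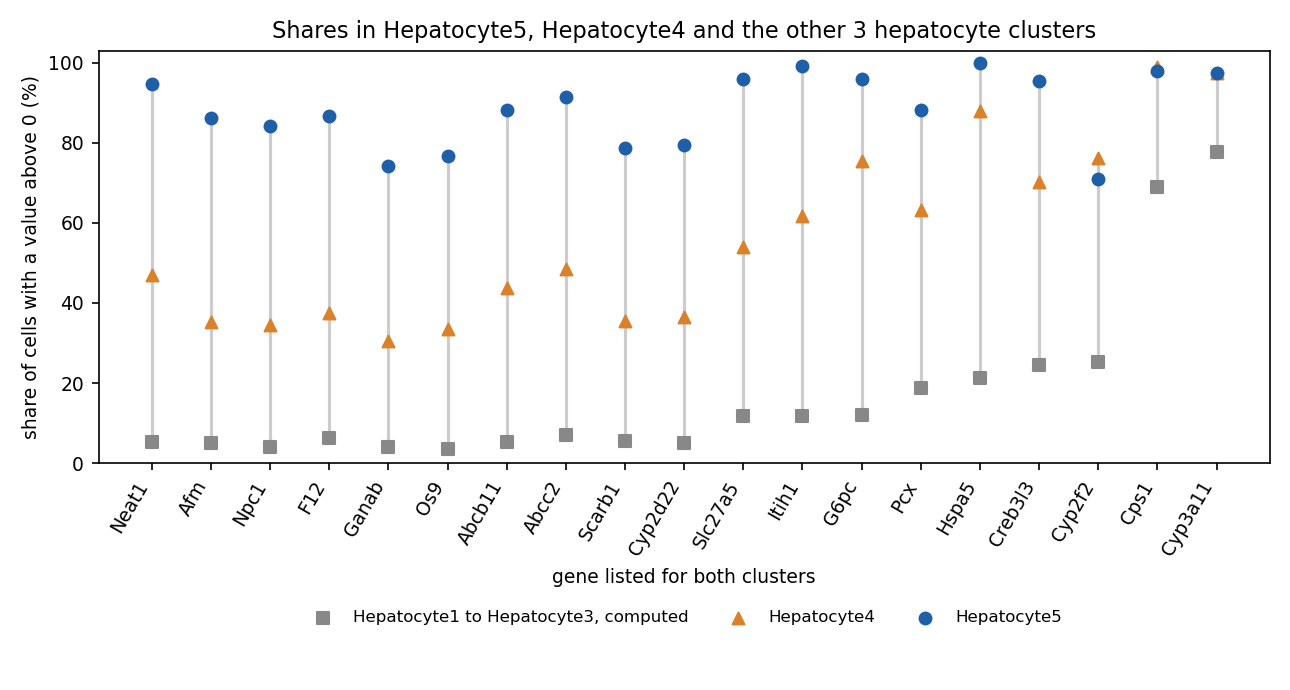
Percent of cells in which a gene was recorded (vertical axis) for 19 genes listed for both clusters (horizontal axis): Hepatocyte5 (blue circles), Hepatocyte4 (orange triangles) and Hepatocyte1 to Hepatocyte3 together, computed from the balance of shares (grey squares). Hepatocyte5 is highest for 16 of them, and the exceptions, Cyp2f2, Cps1 and Cyp3a11, are the last 3 on the axis. There are no error bars because both libraries were pooled.

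Genes listed for Hepatocyte5 and not for Hepatocyte4 were led by transporters, esterases and clotting proteins. Abca6, an ABC transporter gene on chromosome 11 from 110176820 to 110251776, had the widest difference at 84.8% against 9.2% in the other hepatocytes. Aadac, an ER enzyme that splits acyl groups from drugs and lipids, was recorded in 89.4% and 16.1%. The amylase gene Amy1 stood at 90.1% and 17.1%. Protein C (Proc), an anticoagulant protease, had shares of 97.4% and 26.9%, close to those of factor X (F10), 96.7% and 26.3%.

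Others of this set act in the ER or at the cell surface. Lbp, the plasma protein that binds bacterial lipopolysaccharide, stood at 88.7% and 18.5%. Tecr and Ebp, enzymes of fatty acid elongation and cholesterol synthesis in the ER, were recorded in 86.8% against 17.4% and 88.1% against 20.3%. Gjb1 encodes connexin 32, the main gap junction protein of hepatocytes, and stood at 84.8% and 16.4%. Ces1c, a carboxylesterase, had shares of 88.7% and 21.3%. These leading genes were unlike most of the set, whose median shares were 38.4% in Hepatocyte5 and 5.3% elsewhere.

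Plasma protein genes were widely listed. Of the 34 complement genes, 27 appeared in the hepatocyte table, and all 27 were listed for Hepatocyte5, beside 18 for Hepatocyte4. Their median share was 92.7% in Hepatocyte5 and 19.5% in the other hepatocytes. The central component C3 was recorded in 100% against 79.0%, and complement factor B (Cfb) in 100% against 33.9%. The terminal components Hc (C5), C8a and C9 had shares of 100%, 96.7% and 94.7% in Hepatocyte5, against 28.1%, 25.3% and 35.2%.

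The 9 complement genes without a Hepatocyte4 listing included some of the starting proteases of the classical and lectin pathways. C1ra stood at 51.7% against 4.6%, C1rb at 33.8% against 2.9%, C1s2 at 48.3% against 4.4% and Masp2 at 78.1% against 19.5%. Starting proteases listed for both clusters were C1s1 and Masp1, with Hepatocyte4 shares of 46.9% and 30.0%. C1ra and C1rb, like C1s1 and C1s2 or C4a and C4b, are near-identical neighbours whose reads the counting may have divided unevenly. C2, C4a, C6, Vtn and Cpn1 completed the 9 genes.

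Coagulation gave the same picture, with 25 of 27 genes in the table and all 25 listed for Hepatocyte5, beside 15 for Hepatocyte4. Prothrombin (F2) was recorded in 100% of Hepatocyte5 cells against 50.4%, and plasminogen (Plg) in 100% against 44.7%. The inhibitors heparin cofactor II (Serpind1) and alpha-2-antiplasmin (Serpinf2) stood at 93.4% against 19% and 91.4% against 22.2%. Of the kinin genes, Klkb1 had shares of 86.8% and 16.3%, Kng1 100% and 56.5%, and Kng2 85.4% and 18.8%. The 10 genes without a Hepatocyte4 listing were F10, F11, Fgb, Kng1, Kng2, Proc, Pros1, Serpina10, Cpb2 and Habp2, so clotting factors and their inhibitors were both among them.

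Other secreted plasma proteins were listed for Hepatocyte5 in 28 of 34 cases (82.4%) and for Hepatocyte4 in 21 (61.8%). Genes of the acute phase and cytokine response were listed in 18 (78.3%) and 14 (60.9%) of 23. Hemopexin (Hpx), fetuin-B (Fetub) and ceruloplasmin (Cp) had Hepatocyte5 shares of 100%, 92.7% and 100%. Their shares in the other hepatocytes were 86.8%, 32.9% and 40.2%. The receptor subunits for interleukin-6 and interleukin-1 were less often detected, with Il6st at 57.0% against 7.8% and Il1r1 at 52.3% against 8.4%. The acute phase genes Saa1, Saa2, Orm1 and Hamp were listed for Hepatocyte1 and not for Hepatocyte5. The alpha-1-antitrypsin genes Serpina1b, Serpina1c and Serpina1d were listed for Hepatocyte2 and not for Hepatocyte5.

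Lipoprotein genes were listed in part. Apob, the large core protein of low-density lipoprotein, was recorded in 100% against 70.1%, and Mttp, which loads it with lipid, in 94.0% against 21.6%. Lrp1 and Scarb1, which take lipoproteins up, stood at 88.1% and 78.8% in Hepatocyte5. The small apolipoprotein genes Apoa2, Apoc1, Apoc2, Apoc4 and Apom were listed for Hepatocyte1 and not for Hepatocyte5, although Apoa1 and Apoe were Hepatocyte5 genes. In all, 15 of 20 genes of this list in the table were Hepatocyte5 genes and 11 were Hepatocyte4 genes.

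The machinery that folds and exports these proteins was listed as well. Of 23 genes for ER chaperones, folding and ER-associated degradation in the table, 22 (95.7%) were Hepatocyte5 genes and 17 (73.9%) Hepatocyte4 genes. Hspa5 (BiP), the main ER chaperone, was recorded in 100% of Hepatocyte5 cells, 88.0% of Hepatocyte4 cells and 21.2% of the other clusters. Hsp90b1 (GRP94) stood at 99.3%, 84.3% and 22.8%, and calreticulin (Calr) at 98.0%, 79.2% and 18.4%. Herpud1 and Xbp1, genes of the response to unfolded proteins, had Hepatocyte5 shares of 98.7% and 72.2% against 41.1% and 18.3%. The sensors Atf6 and Ern1 (IRE1) were listed without a Hepatocyte4 listing, at 38.4% against 5.5% and 25.8% against 3.2%.

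The ER stress element, CCAAT and CCACG with 9 bases between them, is the sequence through which ATF6 turns on ER chaperone genes. It was searched on either strand of RefSeq promoters (GRCm38.p6), from 250 bases before to 50 bases after the start. It was found in 7 of 875 promoters of Hepatocyte5 genes, in 7 of 922 of Hepatocyte4 genes and in 0.119% of all 32851 promoters, and 6 of the 7 were promoters of genes listed for both clusters. All 7 Hepatocyte5 matches belonged to ER chaperone and folding genes: Calr, Canx, Dnajc3, Hsp90b1, Hspa5, Pdia6 and Syvn1. The matches are printed below with 20 bases on either side, 5′ to 3′ on the strand of the gene and with the element in capitals, because the same element stands before 7 genes that are listed together.
Hspa5: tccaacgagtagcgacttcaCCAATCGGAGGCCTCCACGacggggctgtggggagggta
Hsp90b1: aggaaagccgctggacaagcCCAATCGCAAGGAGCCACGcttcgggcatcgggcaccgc
Pdia6: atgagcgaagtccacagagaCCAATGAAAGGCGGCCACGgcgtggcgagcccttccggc
Canx: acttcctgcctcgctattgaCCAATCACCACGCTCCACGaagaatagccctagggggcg
Dnajc3: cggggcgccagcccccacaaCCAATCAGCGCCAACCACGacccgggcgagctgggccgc
Syvn1: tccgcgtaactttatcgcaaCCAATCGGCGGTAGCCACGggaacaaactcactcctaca
Calr: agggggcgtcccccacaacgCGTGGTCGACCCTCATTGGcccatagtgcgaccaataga

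The Hspa5 stretch lies at chr2:34772005-34772063 on the plus strand, and its element ends 47 bases before the start. The others lie at chr10:86705618-86705676 (Hsp90b1, minus strand), chr12:17266471-17266529 (Pdia6, plus), chr11:50325780-50325838 (Canx, minus), chr14:118937807-118937865 (Dnajc3, plus), chr19:6046512-6046570 (Syvn1, plus) and chr8:84847055-84847113 (Calr, minus), where the element is in the opposite orientation. Hsp90b1 has a further match nearer its start. Of the 7 genes, Syvn1 had the lowest share in Hepatocyte5, 46.4% against 6.2%, and was the only one not listed for Hepatocyte4. A promoter was found for 685 of the 871 genes, or 78.6%. This is under the 80% needed to compare the genes as a set, so nothing is read from the counts of the element above, and those of the other motifs searched (HNF1, HNF4, C/EBP, FOX, STAT and CRE) are not given. A match in a promoter is a description and shows no binding.

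Of 35 genes for ER translocation, N-glycosylation and transport to the Golgi apparatus, 26 (74.3%) were Hepatocyte5 genes and 30 (85.7%) Hepatocyte4 genes. This was the reverse of the order for plasma proteins. Rpn1 and Stt3a, subunits of the enzyme that attaches sugars, stood at 78.8% against 12.6% and 51.7% against 8.0%. Lman1, a cargo receptor for clotting factors, had shares of 88.7% and 18.9%, and Man2a1, a Golgi mannosidase, 97.4% and 24.6%. The 8 genes listed for Hepatocyte4 alone were Sec23a, Sec24a, Sec24d, Sec31a, Tmed2, Tmed10, Ssr3 and Mcfd2. Of these, only the Sec genes encode coat proteins that assemble on the membrane from the cytosol.

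Lysosomal genes were listed in 20 of 23 cases (87.0%), and in 16 (69.6%) for Hepatocyte4. Lamp2, a lysosomal membrane protein, stood at 98.7% against 35.8%, the protease gene Ctsd at 90.1% against 16.8% and Man2b1, a mannosidase without a Hepatocyte4 listing, at 51.7% against 4.3%. The genes for MHC class I presentation were all 8 listed for Hepatocyte5 and 3 for Hepatocyte4. H2-K1 and H2-D1 were recorded in 99.3% and 98.7% of Hepatocyte5 cells, against 34.2% and 37.4%. Tapbp (tapasin) and Erap1, which fit peptides to class I molecules in the ER, were listed only for Hepatocyte5 among hepatocyte clusters, at 45.0% against 6.2% and 49.0% against 5.1%.

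**Figure D3:**
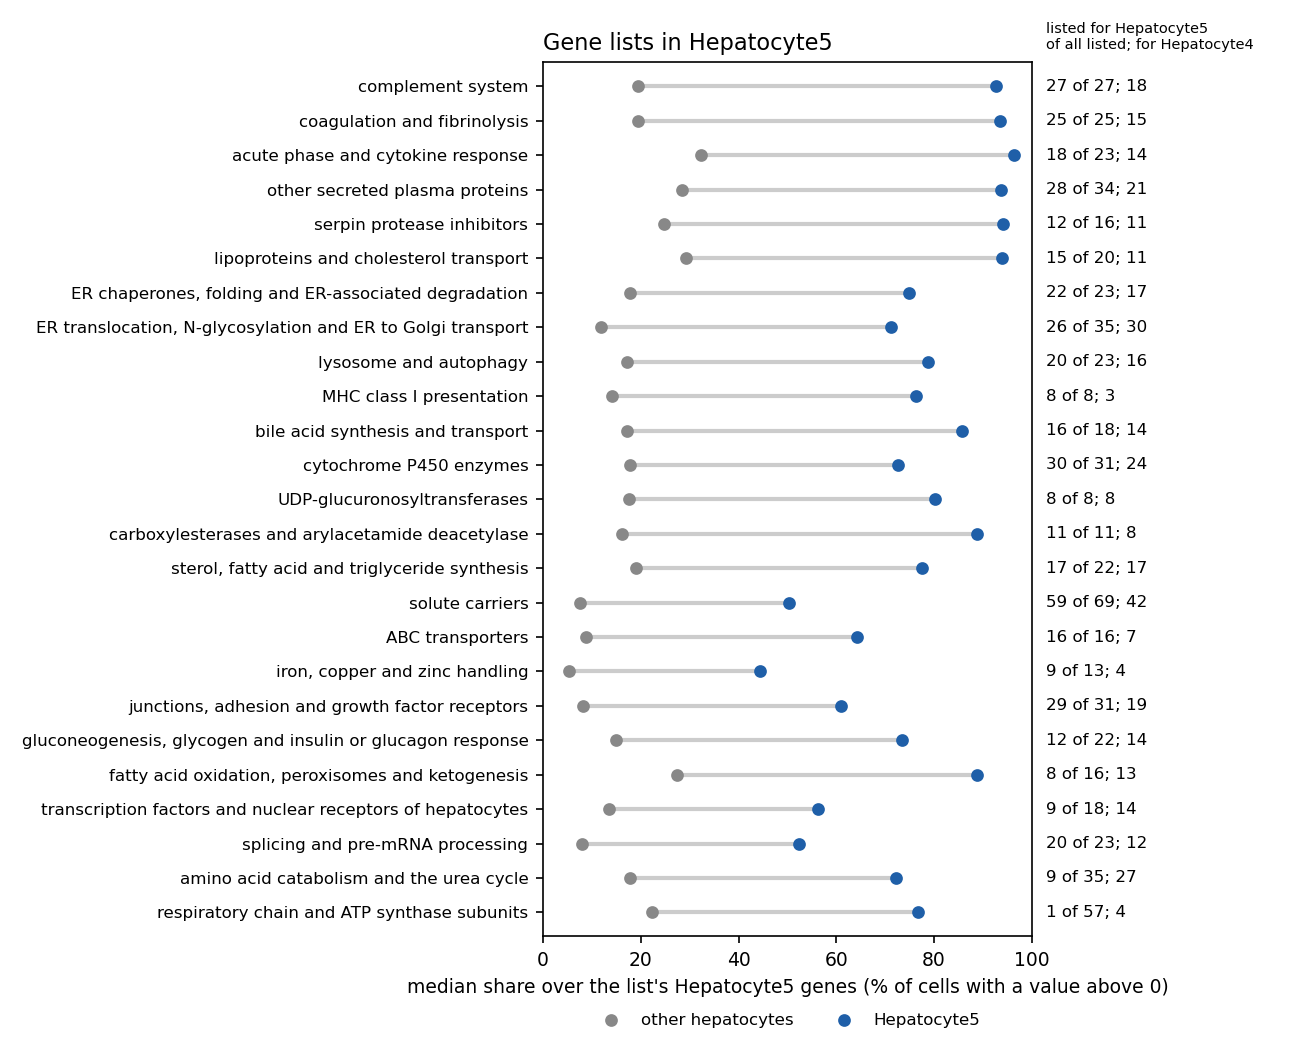
Median percent of cells in which a gene was recorded (horizontal axis) over the Hepatocyte5 genes of 25 gene lists, in Hepatocyte5 (blue) and in the other hepatocytes (grey). The numbers at the right give how many genes of the list were listed for Hepatocyte5, of those in the hepatocyte table, and then how many for Hepatocyte4. Complement is at 27 of 27 at the top and the respiratory chain at 1 of 57 at the bottom.

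Bile acid genes were listed in 16 of 18 cases (88.9%), and in 14 (77.8%) for Hepatocyte4. Uptake at the blood side was represented by Slc10a1 and Slco1b2, at 96.7% against 30.7% and 100% against 45.3%. Export into bile was represented by Abcb11 and Abcc2, described above, and Abcb4, which exports phosphatidylcholine and stood at 92.1% against 20.4%. The sterol exporters Abcg5 and Abcg8, which work as a pair, were listed for Hepatocyte5 only, at 33.8% against 4.5% and 40.4% against 6.5%. Cyp8b1 and Cyp27a1, enzymes that make bile acids from cholesterol, had shares of 94.0% against 32.4% and 83.4% against 21.3%.

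Drug-modifying enzymes of the ER were listed for both clusters. Of 31 P450 genes 30 were Hepatocyte5 genes and 24 Hepatocyte4 genes, all 8 UDP-glucuronosyltransferases were listed for both, and of the 11 carboxylesterases with Aadac 11 were Hepatocyte5 genes and 8 Hepatocyte4 genes. Of 4 glutathione S-transferases and 2 sulfotransferases in the table, 0 were listed for Hepatocyte5 and 1 of each family for Hepatocyte4. These are enzymes of the cytosol, and too few to set beside the shares over all genes. Examples from the ER enzymes are Cyp2d10 at 100% against 33.4%, Ugt2b36 at 98.7% against 32% and Ces3a at 96.0% against 28.5%. The carboxylesterase and glucuronosyltransferase genes stand in clusters of like sequence: 6 listed Ces1 genes lie on chromosome 8 between 93056728 and 93337308, and 6 listed Ugt2 genes on chromosome 5 between 86889767 and 87337195. Reads shared between such copies make the share of any single one uncertain.

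Transporters made up the largest family. The table held 69 genes with an Slc (solute carrier) symbol, of which 59 (85.5%) were Hepatocyte5 genes and 42 (60.9%) Hepatocyte4 genes. Of the 59, 27 were not listed for Hepatocyte4. Slc38a4 and Slc7a2, carriers of neutral and basic amino acids, were recorded in 100% against 37.6% and 98.0% against 30.0%. The glucose-6-phosphate carrier Slc37a4, which works with G6pc, stood at 84.1% against 16.4%, and the glucose exit route Slc2a2 at 66.9% against 13.4%. Of the 10 Slc genes listed for Hepatocyte4 alone, 8 were of the Slc25 family, most of which sit in the inner membrane of mitochondria, and 1, Slc9a3r1, encodes a scaffold protein. Of the same family, Slc25a20, Slc25a25 and Slc25a51 were listed for both clusters, and Slc25a17, at 32.5% against 5.0%, for Hepatocyte5 and not for Hepatocyte4.

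All 16 ABC transporters in the table were Hepatocyte5 genes, and 7 were Hepatocyte4 genes. The other 9 were in the table without a Hepatocyte4 listing, so the full count is partly set by the listing. Abcc3, an exporter at the blood side, had shares of 70.9% and 9.1%. Abcg2, an exporter of urate and drugs, stood at 62.9% against 9.1% and was not listed for Hepatocyte4. Abca6, Abca8a and Abca8b lie side by side on chromosome 11, and all 3 were listed for Hepatocyte5 only.

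Iron, copper and zinc genes divided by protein type. Tfr2 and Tmprss6, membrane proteins by which hepatocytes sense iron, stood at 92.1% against 18.7% and 93.4% against 18.1%. The zinc importer Slc39a14 was recorded in 76.2% against 10.3%, and the manganese exporter Slc30a10 in 44.4% against 4.9%. The 4 genes of the list that were not Hepatocyte5 genes, ferritin heavy and light chains (Fth1 and Ftl1) and metallothioneins (Mt1 and Mt2), encode small soluble proteins and were listed for Hepatocyte3, with Ftl1 and Mt1 also listed for Hepatocyte1.

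Junction, adhesion and growth factor receptor genes were listed in 29 of 31 cases (93.5%), 12 of them without a Hepatocyte4 listing. For Hepatocyte4, 19 (61.3%) were listed. Egfr and Erbb3, receptors of the epidermal growth factor family, stood at 84.8% against 16.6% and 61.6% against 10.8%. Met, the hepatocyte growth factor receptor, had shares of 33.1% and 4.8%, and Fgfr4, through which FGF15 lowers bile acid synthesis, 27.8% and 1.9%. The tight junction genes Cldn1, Cldn3 and Ocln were recorded in 45.0%, 60.9% and 25.2% of Hepatocyte5 cells, against 6.0%, 9.4% and 3.0%. Gcgr and Insr, the receptors for glucagon and insulin, stood at 60.9% against 10.1% and 72.2% against 10.9%.

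The study concerned glucose production. Of 22 genes in the table for gluconeogenesis, glycogen and the response to insulin or glucagon, 12 were Hepatocyte5 genes and 14 Hepatocyte4 genes. The 12 were 54.5%, close to the 54.3% of all genes in the table, so the count is no result about this pathway. G6pc, Slc37a4 and Pcx were listed for both clusters. Pck1, which encodes the cytosolic enzyme that makes phosphoenolpyruvate, and Hnf4a, a nuclear receptor that maintains hepatocyte identity, were listed for Hepatocyte4, at 99.2% against 82.5% and 65.9% against 19.7%, and were not listed for Hepatocyte5. The study, however, describes G6pc and Pck1 as high especially in Hepatocyte4 and Hepatocyte5. The 4 genes with a Hepatocyte5 listing only were Mlxipl, Gckr, Gaa and Gpt. Mlxipl, which encodes the glucose-responsive factor ChREBP, stood at 55.0% against 5.4%.

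Of the other genes the study names for hepatocytes, Fbp1 was listed for Hepatocyte3 and Stat3 for Hepatocyte4. Glul, Cdh1, Il13ra1, Il13ra2, Il4ra, Stat6, Ppargc1a, Fas, Bax and Bcl2 were not listed for any hepatocyte cluster. Of the IL-13, IL-33 and STAT list of 14 genes, 2 were in the hepatocyte table, of which 0 were Hepatocyte5 genes and 2 Hepatocyte4 genes. Of the cell death and p53 list, Susd6 was the only Hepatocyte5 gene. A missing listing does not mean that a gene was not expressed. The study describes Il4ra, Stat3, Stat6 and an IL-13 receptor gene as high in Hepatocyte4 and Hepatocyte5. It also describes Cdh1 as higher in both.

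Zonation markers of both kinds were listed for Hepatocyte5. Its genes were 8 of the 12 pericentral markers in the table (66.7%) and 11 of the 21 periportal ones (52.4%), beside 54.3% of all genes in the table. Hepatocyte4 genes were 7 (58.3%) and 16 (76.2%), beside 54.7%. The periportal count for Hepatocyte5 was close to the share over all genes, and none of these counts was tested. Cyp1a2 and Cyp2c29, from the pericentral zone, stood at 47.7% against 14.7% and 56.3% against 21.9%. Periportal Hsd17b13 and Gldc had shares of 84.1% and 72.2% against 34.8% and 21.7%.

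Lipid synthesis was listed in 17 of 22 cases (77.3%) for Hepatocyte5 and also in 17 for Hepatocyte4. The desaturase and elongase genes Fads2, Scd1 and Elovl2, whose products sit in the ER membrane, stood at 83.4%, 72.8% and 99.3% against 19.1%, 19.2% and 26%. The 5 genes listed for Hepatocyte4 alone, Hmgcs1, Insig1, Acly, Lpin1 and Me1, include the cytosolic enzymes that supply acetyl-CoA and NADPH. The 5 listed for Hepatocyte5 and not for Hepatocyte4 included Scap, Dgat1, Agpat3 and Tecr. Fatty acid oxidation was listed in 8 of 16 cases, near the 54.3% of all genes in the table, and in 13 for Hepatocyte4. Among the 8 were Cpt1a and Acsl1, at 92.7% against 24.4% and 100% against 54.0%. Mitochondrial and peroxisomal matrix enzymes such as Hadhb and Ehhadh were listed for Hepatocyte4 alone.

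Few genes of amino acid breakdown and energy metabolism were listed for Hepatocyte5. Of 35 genes for amino acid catabolism and the urea cycle in the table, 9 (25.7%) were Hepatocyte5 genes and 27 (77.1%) Hepatocyte4 genes. Of these, 19 were listed for Hepatocyte4 and not for Hepatocyte5, against 1 the other way. Tat, Tdo2, Cbs and Hal, enzymes that break down tyrosine, tryptophan, homocysteine and histidine, were among the 19. Of 57 respiratory chain and ATP synthase genes in the table, 1 was a Hepatocyte5 gene, Uqcrc2, at 76.8% against 22.3%, and 4 were Hepatocyte4 genes. The hepatocyte table held 0 ribosomal protein genes and 0 transcripts made inside mitochondria. The study left some genes out of the clustering, and whether these were among them was not tested, so nothing is read from their absence.

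The nucleus was represented by other kinds of gene. Besides Neat1, the long RNA Kcnq1ot1, which is kept at its imprinted locus on chromosome 7, was listed for Hepatocyte5 only, at 51.0% against 2.7%. It is antisense to Kcnq1. Of 23 splicing and pre-mRNA processing genes, 20 (87.0%) were Hepatocyte5 genes and 12 (52.2%) Hepatocyte4 genes. Of the 20, 11 were not listed for Hepatocyte4. Ddx5 and Luc7l2 stood at 87.4% against 25% and 83.4% against 13.9%, and Pnisr, without a Hepatocyte4 listing, at 49.7% against 4.5%.

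Chromatin genes picked out after the rows had been read, such as Atrx, Trim33 and Kmt2c, had shares of 53.6%, 54.3% and 37.7% against 7.9%, 6.0% and 5.6%, and were not listed for Hepatocyte4. Of 18 transcription factors of hepatocytes, 9 were Hepatocyte5 genes and 14 Hepatocyte4 genes, beside 54.3% and 54.7% of all genes in the table, and this difference was not tested. Creb3l3, an ER-anchored factor of fasting, led them at 95.4% against 32.9%. Nr1i3, the xenobiotic receptor CAR, stood at 70.9% against 21.6%. Cebpa, Foxa2, Nr5a2 and Prox1 were listed for Hepatocyte4 alone. In the table of all cells Prox1 was listed for Hepatocyte5 too, at 76.2% against 41.9%. Of 7 immediate early and stress genes in the table, 2 were Hepatocyte5 genes and 5 Hepatocyte4 genes. These are too few to set beside the shares over all genes. Jun and Egr1, listed for both, stood at 52.3% against 13.2% and 51.7% against 10.9%, and Fos and Junb were not listed for any hepatocyte cluster.

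The coding sequences of the Hepatocyte5 genes were then described by a rule chosen after the rows had been read, with no test. Codons with thymine in the middle encode phenylalanine, leucine, isoleucine, methionine and valine, which are water-repelling, and long runs of such codons mark membrane-spanning segments. A stretch of 19 codons of which at least 12 had thymine in the middle was found in 438 of 866 Hepatocyte5 coding sequences, or 50.6%. The share was 32.2% of all Hepatocyte4 genes and also 32.2% of all genes in the hepatocyte table. The Hepatocyte4 genes divided into those also listed for Hepatocyte5, at 53.5%, and the rest, at 11.7%. It was 13.2% for Hepatocyte1, 5.45% for Hepatocyte2, 2.44% for Hepatocyte3 and 28.8% for all 21875 annotated protein-coding genes.

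The rule found 81.9% of all Slc genes, which encode membrane proteins, and 2.17% of proteasome and ribosomal protein genes. A shorter stretch at the start, 7 of 11 codons within the first 35, marks the signal that sends secreted proteins into the ER, and was found in 75% of chemokine genes and 2.17% of proteasome and ribosomal protein genes. It was present in 41.2% of Hepatocyte5 genes, 27.6% of Hepatocyte4 genes, 26.4% of the hepatocyte table and 24.3% of all annotated genes. Either stretch was present in 67.9% of Hepatocyte5 genes, 43.8% of Hepatocyte4 genes, 44.0% of the table and 37.7% of all annotated genes. It was present in 63.9% of the Hepatocyte5 genes without a Hepatocyte4 listing and 16.6% of the Hepatocyte4 genes without a Hepatocyte5 listing.

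Read the other way, 83.8% of the genes of the hepatocyte table with either stretch were Hepatocyte5 genes, against 31.2% of those with none. All of these genes had been listed for a cluster, 436 of the 1604 for Hepatocyte5 alone. Both percentages are therefore partly set by the listing and do not hold for genes in general. Of the Hepatocyte4 genes, 80.6% of those with a stretch were also Hepatocyte5 genes, against 24.4% of those with none. Among Hepatocyte5 genes the median difference in share was 44.6 percentage points with a stretch and 39.6 without. The coagulation genes had the start stretch in 22 of 25 cases and the complement genes in 19 of 26, while solute carriers had the long stretch in 54 of 59. None of the 9 Hepatocyte5 genes of amino acid breakdown had either, and 1 of 20 splicing genes did. Hepatocyte5 genes had a median longest transcript of 3618 nucleotides, beside 3471 for genes listed for Hepatocyte4 alone and 918 for Hepatocyte1 genes. Their median coding sequences, in which the stretches were searched, were 1672, 1383 and 414 nucleotides long. The stretch counts were not adjusted for coding length, and how far they depend on it was not tested.

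**Figure D4:**
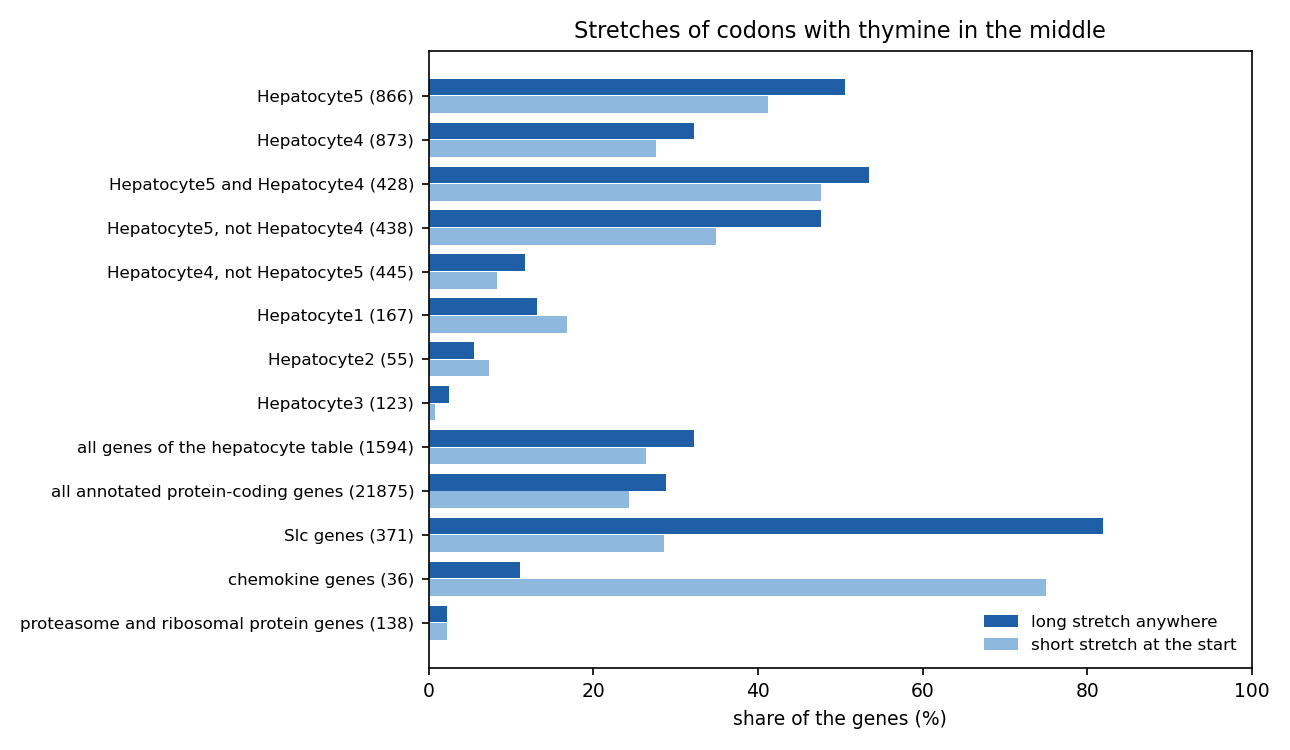
Share of genes (horizontal axis, percent) whose coding sequence holds a long stretch of codons with thymine in the middle (dark bars) or a short one at its start (light bars), for gene sets with the number of coding sequences in brackets. Dark bars reach 50.6% for Hepatocyte5 genes, 32.2% for Hepatocyte4 genes and for the whole table, and 11.7% for genes listed for Hepatocyte4 and not for Hepatocyte5. Slc, chemokine, proteasome and ribosomal protein genes are shown for reference.

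The 359 Hepatocyte5 genes in none of the gene lists had median shares of 43.0% and 6.9%, and 239 of them were not listed for Hepatocyte4. Either stretch was present in 56.6% of them. Those named here were picked after their values were seen. Por, which passes electrons to all P450 enzymes of the ER, stood at 98.7% against 31.1%, and Furin, a protease of the Golgi apparatus that cuts precursors of plasma proteins, at 80.1% against 16.7%. Zmpste24, a membrane protease that trims lamin A, had shares of 62.9% and 5.9% and was not listed for Hepatocyte4. Ggcx, the carboxylase that vitamin K-dependent clotting factors need, stood at 28.5% against 3.5%, and Igf2r, which carries enzymes to lysosomes, at 28.5% against 3.1%.

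Measured against all other liver cells, 434 genes were listed for Hepatocyte5, and 409 of them were also in its rows of the hepatocyte table. The leading ones were Afm at 96.7% against 27.1%, Neat1 at 94.7% against 25.6% and Aadac at 89.4% against 21.0%. Next came Ces3a, Ces2a, G6pc, F7, Ugt2b36, C1s1 and Pqlc1, with Hepatocyte5 shares from 86.8% to 98.7%. The 25 genes listed there alone included Ssr2, a subunit of the ER translocon complex, at 82.8% against 26.4%, and the histidine-degrading gene Hal at 93.4% against 56.8%.

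The Hepatocyte5 share of a gene should be the same in both tables, yet it differed for 313 of the 409 genes. It was higher in the table of all cells for 304, lower for 9 and equal for 96, with a median change of 5.3 percentage points and a largest change of 51.7, for Slco1a4, from 41.7% to 93.4%. The values of the table of all cells may have been scaled or batch-integrated, which was not tested, and the hepatocyte table was used for the values above. In the table of all cells 350 of the 434 genes were also listed for Hepatocyte4 and 84 were not. Of the 441 genes without a Hepatocyte4 listing among hepatocytes, 46 were listed for Hepatocyte4 there.

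**Figure D5:**
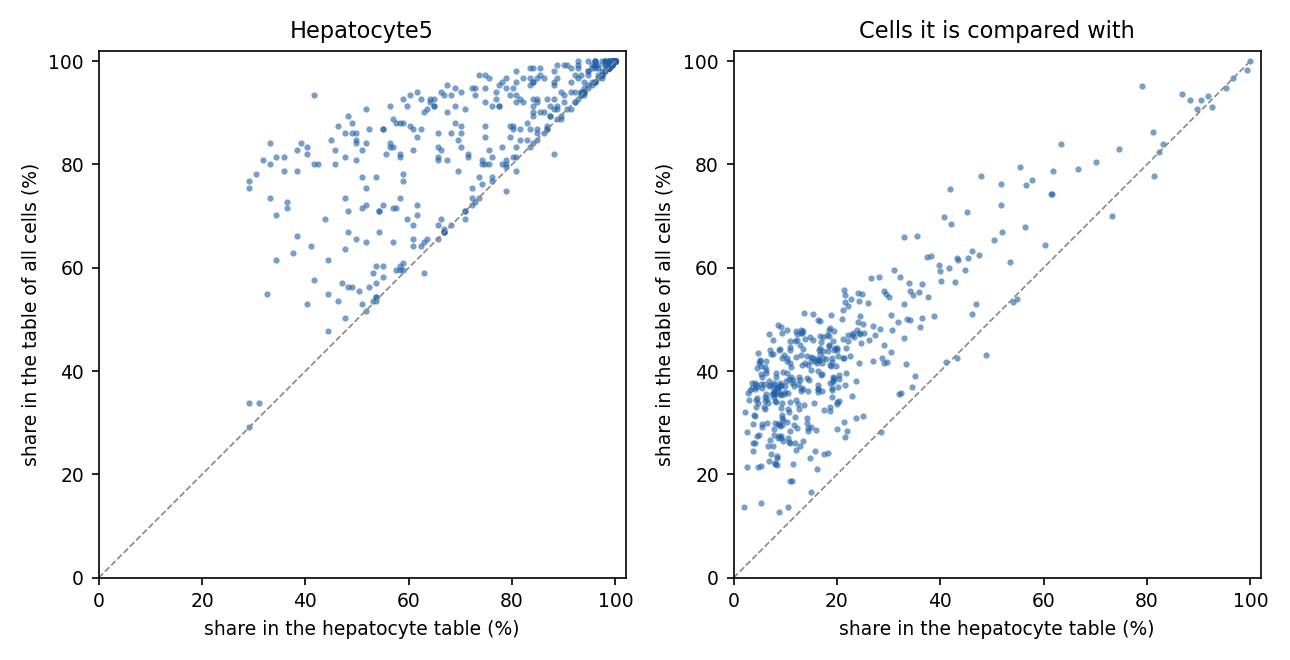
Shares of the 409 genes listed for Hepatocyte5 in both tables, each in percent of cells: hepatocyte table on the horizontal axes, table of all cells on the vertical axes. The left panel shows Hepatocyte5, where 304 genes lie above the dashed line of equal shares, and the right panel the cells it was compared with, which are the other hepatocytes in one table and all other cells in the other.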

How the data were processed

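Single-cell RNA-seq of hepatocytes gave 1 library for PBS and 1 for rIL-33. Per the study's methods, reads were assigned to genes by Cell Ranger (mm10 reference); the authors kept cells with 200 to 3000 genes and a mitochondrial share of at most 50% (the upper gene limit was their filter for doublets, and none could be run on these tables), scaled each cell to 10000 and clustered the cells with Seurat. The deposited fraction columns give, for a cluster and for the cells it was compared with, the part of cells whose value for a gene exceeded 0, printed here as percentages. The deposited log2 fold changes, p-values and adjusted p-values are the authors' own comparisons between clusters and were read only to check the limits for listing. Depth per cell and library is not in the tables.

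Rows were taken by cluster name. Gene names of 7 rows were stored as dates, 3 of them for Hepatocyte5, and were left out. Relative cluster sizes came from least squares on the balance of shares (size times share inside plus the rest times share outside is equal for all clusters that list a gene). On simulated data of 1500 genes the largest error was 0.014 percentage points for a size and 0.058 for a computed Hepatocyte1 to Hepatocyte3 share. Positions and coding sequences are from GENCODE M21 on GRCm38, the assembly called mm10, and were found for 869 and 866 of the 871 genes; promoters are from RefSeq on GRCm38.p6. The scripts ran under Python 3.11.15 with pandas 2.3.3, NumPy 2.4.6 and, for figures, matplotlib 3.10.9.

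No test was run, because the clusters and their genes come from the same pooled cells. The members and the 55 gene lists were chosen with earlier results of these data known, 8 lists and the codon rule after the rows had been read. Named genes were the 3 markers, genes the study names, the 10 genes with the largest difference in share (over all, among those not listed for Hepatocyte4, and in the table of all cells), up to 8 leading members of each list, and the 10 shared genes most above and the 5 most below Hepatocyte4, with other list members added as examples after their values were seen. Alternatives were the table of all cells, rows at least 10 or 25 percentage points apart, least absolute deviations and stricter codon rules. A few genes are not reported here.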

Additional observations from a re-analysis of the deposited data

How the results depend on the processing

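Taken from the table of all cells, 434 genes were listed for Hepatocyte5 in place of 871, and 84 in place of 441 were not listed for Hepatocyte4. The median difference was 44.6 percentage points there, and 43.7 over rows with under 50% in the other hepatocytes, in place of 42.9. The share of hepatocytes in Hepatocyte5 was 1.49% there and 1.47% by least absolute deviations or from rows at least 10 percentage points apart. Tm4sf4 was not listed there, so the count of other-cell markers was 0 in place of 1. Rows at least 25 percentage points apart kept 785 genes, and 40 of 40 lists stayed within 1.5 times their count; in the table of all cells 21 did and 19 did not. The difference in share was smaller there for all 21 leading genes listed in both tables, from 41.9 to 69.1 percentage points. With at least 13 of 19 codons the share with a stretch was 31.6% for Hepatocyte5, 18.4% for Hepatocyte4 and 5.84% for genes listed for Hepatocyte4 alone, an alternative chosen after seeing the data. The cause of these changes was not tested. No paired analysis was possible because the tables pool both libraries. The deposited tables give neither cells nor transcripts per cell, which limit every share, above all those near 25%.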
